A study of Danio rerio with 6 samples.

Results

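Ion channel and calcium handling genes of adult AB strain zebrafish were compared, in the apex of the ventricle, between fish given RO, a gamma secretase inhibitor, and fish given its DMSO carrier. The set holds 61 of the 14211 genes of the deposited table. They were chosen by name alone: symbols beginning with kcn (potassium channels), scn and a digit (sodium channels), cacn (calcium channels), hcn (pacemaker channels), ryr and itpr (calcium release channels), atp2a (calcium pumps), atp1a and atp1b (sodium pump), slc8a (sodium-calcium exchanger) and casq (calsequestrins), and the single names trdn, jph2, calm1a and camk2d1. The name rule also listed pln and cx43. No symbol of the table was spelled so, but RefSeq gives these as synonyms of pln1 and of GJA1 (listed there as gja1b), and both rows are described beside the 61 without being counted among them. Among all named IDs, 246 meet the rule, and those without a row of values were not analysed here. The rule also takes in 3 genes that are no channel, ITPRIP, ITPRID2 and itprid1, which are named after their link to the IP3 receptor.

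There were 3 RO libraries and 3 DMSO libraries, each from the apices of 3 hearts. All fish had a cryoinjury of the heart, a local freezing of the ventricle. RO or DMSO was injected into the peritoneum 24 h and 48 h after it, and tissue was taken at 72 h. No group without injury was used here, so the comparison is between RO and carrier in injured hearts. The labels do not say whether the pools came from separate clutches or days, so p-values measure the spread between these pools.

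In a heart muscle cell the sodium and calcium channels of the surface membrane open in turn to depolarize the cell, and potassium channels restore the resting potential. In zebrafish ventricle, kcnh6a carries the rapid delayed rectifier current. Calcium that enters through L-type channels can open ryanodine receptors in the sarcoplasmic reticulum, where calsequestrin stores calcium and triadin and junctophilin hold the release site together. The SERCA pump, restrained by phospholamban, returns calcium to the store, and the sodium-calcium exchanger, driven by the sodium gradient of the sodium pump, moves it out of the cell. IP3 receptors release stored calcium in many cell types, among them endothelium and blood cells.

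Values are the reads of a gene scaled by 1 factor per library. They are not divided by gene length, so levels are compared between groups and not between genes. Values are listed for RO replicates 2, 3 and 4 and for DMSO replicates 1, 2 and 3, in these orders, and means carry the SD of 3 libraries. Between 3306018 and 4463303 reads stood behind a library, and 1 read was worth 0.219 to 0.298. RO replicate 2 stood apart. The 61 genes held 0.607%, 0.732% and 0.782% of all reads in the RO libraries, against 0.759%, 0.720% and 0.757% in the DMSO libraries, so the lowest share was that of RO replicate 2. It was the lowest of all 6 libraries for 25 of the 61 genes, or 41.0%, and over the whole table for 22.3% of genes. All 14211 genes lay above 1 in at least 3 libraries, so detection of a marker says little about the tissue. The tissue label was set beside 15 cardiomyocyte marker genes, all detected in each library, which do not tell the apex from other heart tissue. Their summed value was 44652, 52524 and 58126 in the RO libraries and 50899, 60458 and 61938 in the DMSO libraries, so RO replicate 2 was also lowest in muscle markers, with DMSO replicate 1 below RO replicates 3 and 4. In whole tissue, fewer cells of a type and less RNA per cell cannot be told apart. Of 10 marker symbols of neurons and Schwann cells, 2 were matched, at summed values of 3.35, 3.72 and 5.11 in the RO libraries and 3.65, 5.94 and 6.85 in the DMSO libraries. No marker gene stood at 0 in any library. The part of muscle or nerve RNA in the results below was not tested.

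None of the 61 genes differed between RO and DMSO at the threshold, an adjusted p of 0.05 in limma over all 14211 genes. In the whole table, 147 genes passed, or 1.03%. At a share that small, a set of 61 genes may well hold none, so the lack of calls does not set the members apart. The smallest adjusted p of a member was 0.210, that of ITPR3. With edgeR's quasi-likelihood test, run on recovered reads, no member and 156 genes of the table (1.1%) passed, and 10 members had an unadjusted p under 0.05 beside 13.4% of the table. DESeq2 called no member and 240 genes (3.05% of those it gave an adjusted p), with 3 members at an unadjusted p under 0.05 beside 8.2% of the table. It gave an adjusted p for 29 of the 61. In limma 9 members, or 14.8%, had an unadjusted p under 0.05, where the table had 13.4%. Of these 9, 8 lay lower in RO, which is 13.1% of the members against 6.61% of the table, and 1 lay higher, 1.64% against 6.79%. The RO and DMSO values did not overlap for 8 members, or 13.1%, against 18.7% of the table, with 5 lower in RO (9.35% of the table) and 3 higher (9.32%). Over both directions, the share of members with a p under 0.05 was near that of all genes and the share without overlap lay below it.

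The members leaned to the lower side. Of the 61, 43 had a log2 difference (RO minus DMSO) below 0, or 70.5%, where 51.6% of all genes did, and their median was -0.22, against -0.010 for all genes. Among the 41 members with a mean value of 5 or more, 27 lay below 0, or 65.9%, with a median of -0.17. Of the 11463 genes of the table at that level, 50.2% lay below 0, with a median of -0.0011. The cardiomyocyte markers lay mostly on the same side, 11 of 15 below 0, or 73.3%, with a median of -0.13 and none passing. So did those of fibroblasts and epicardium, 7 of 10 below 0 with a median of -0.45, and of the pacemaker list, 4 of 5 (-0.16). In the pacemaker list isl1, shox2 and tbx3a were not matched, and TBX18 stands in both lists, so it is no separate check of that tissue. Below 0 lay 4 of 9 endothelium markers, 2 of 9 of macrophages and 0 of 6 of thrombocytes. A marker symbol could match several genes, so the 9 macrophage genes stood for 5 symbols and the 6 thrombocyte genes for 5. The part of any cell type in the members' values was not tested. Without RO replicate 2, 38 of the 61 lay below 0, or 62.3%, and the median was -0.12, where 51.1% of all genes lay below 0 with a median of -0.0059. The median was -0.24 for 18 potassium channel genes, -0.31 for 13 genes of sodium transport, -0.17 for 10 calcium channel genes and -0.075 for 18 genes of the calcium stores. That of the stores was 0.086 without RO replicate 2. For 37 of the 61 genes, or 60.7%, the 95% interval lay inside a change of 2-fold either way (log2 -1 to 1), as it did for 78.3% of all genes. The other 24 intervals reached past 2-fold, and 16 of these belonged to genes with a mean value below 5. A change of that size thus lies within them.

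**Figure D1:**
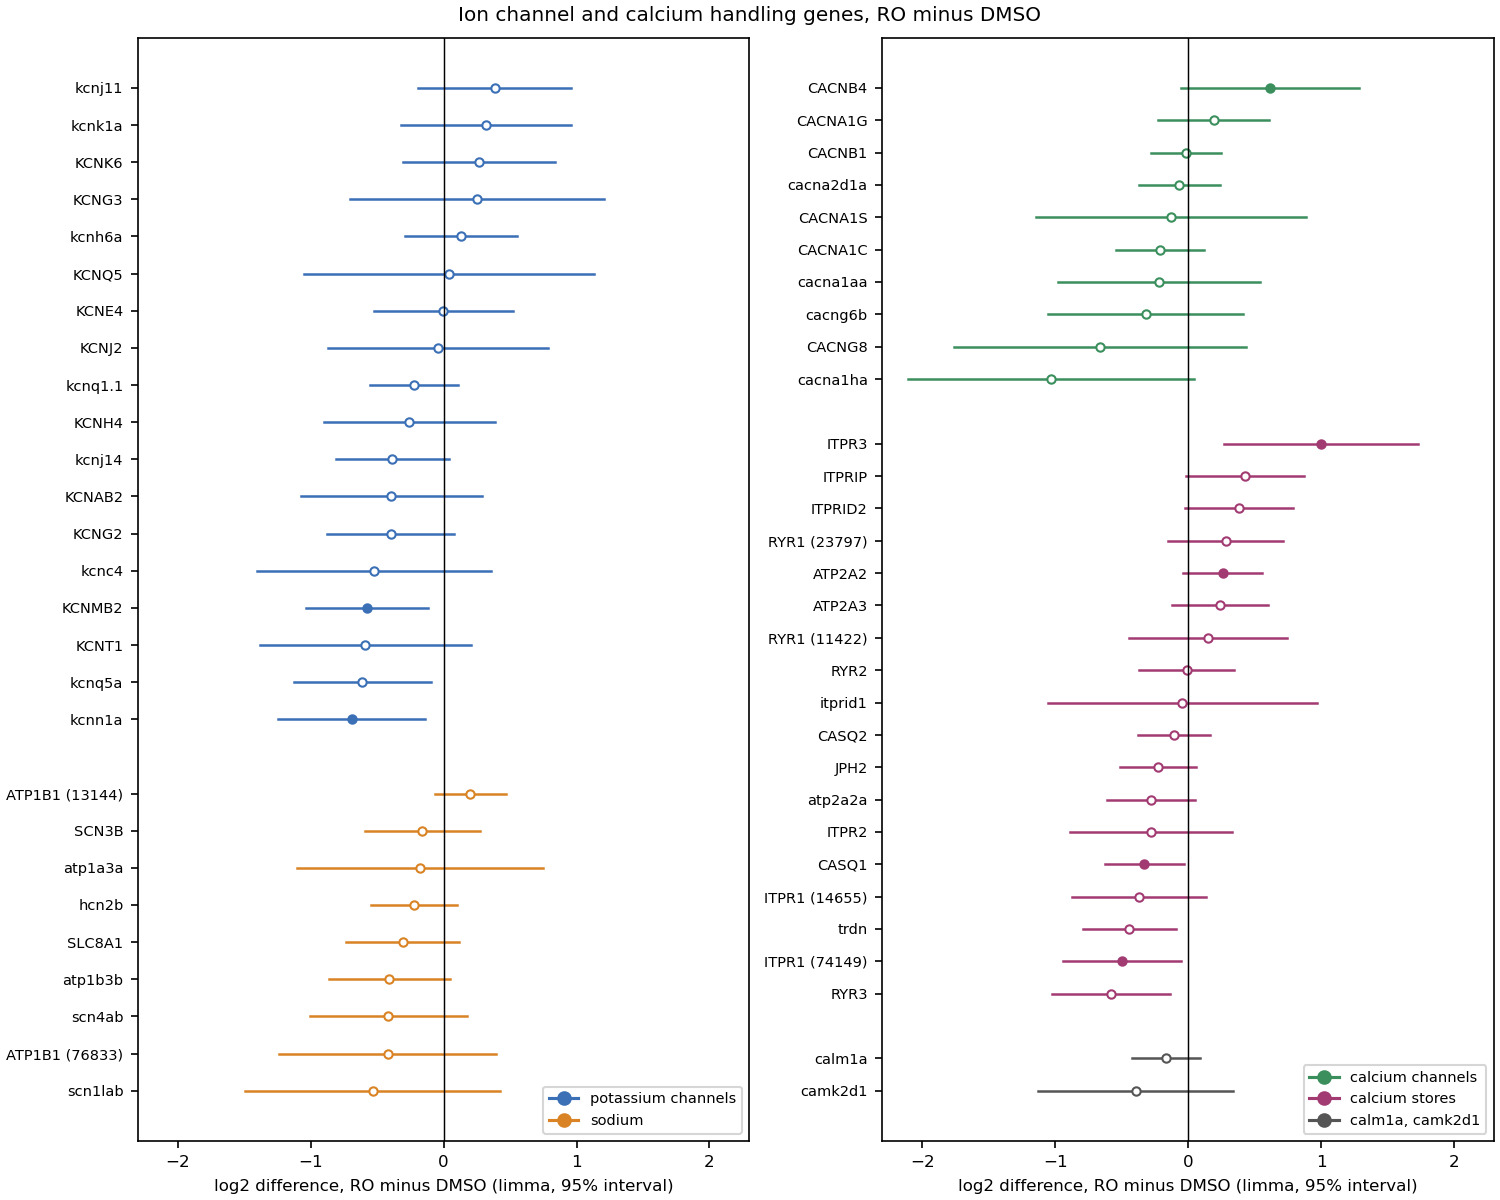
Log2 difference, RO minus DMSO, with its 95% interval from limma, for 57 of the 61 genes by group; filled points mark the 7 of these genes whose RO and DMSO values did not overlap, and numbers in brackets are the last digits of the gene ID where a symbol stands for more than 1 gene. Most points lie left of 0, and 21 intervals reach past 1 or -1.

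**Figure D2:**
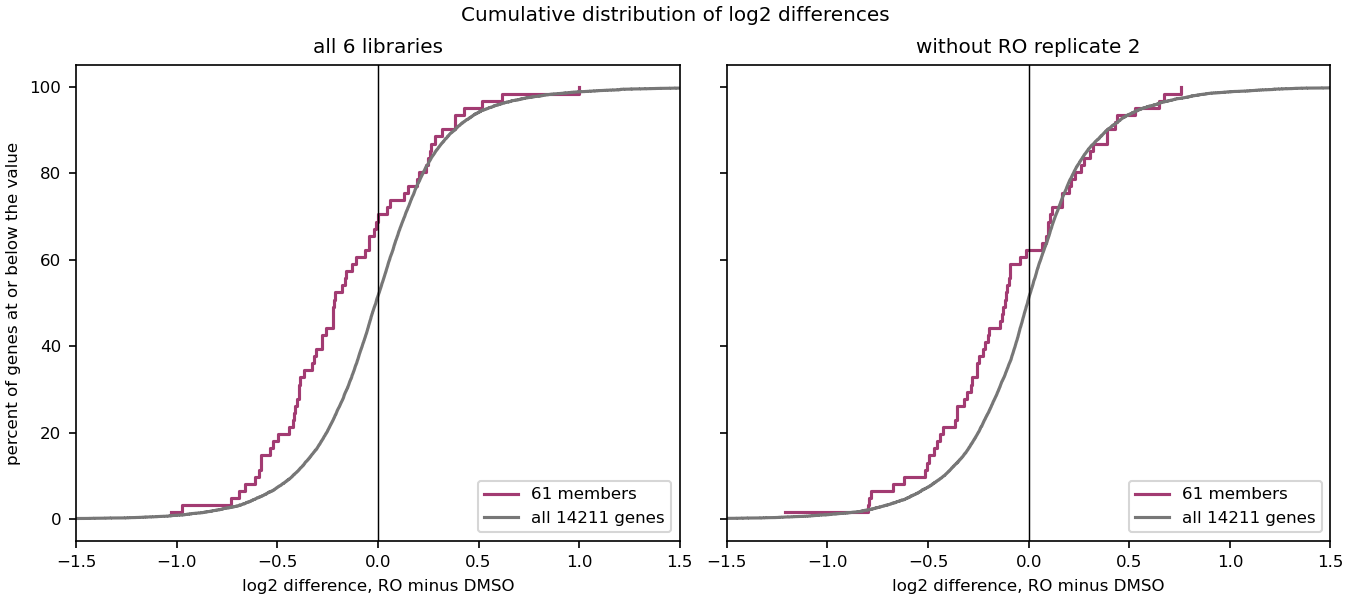
Cumulative percent of genes (vertical axis) at or below a log2 difference, RO minus DMSO (horizontal axis), for the 61 members and all 14211 genes, with all 6 libraries on the left and without RO replicate 2 on the right. At 0 the members' line stands at 70.5% on the left and 62.3% on the right, and that of all genes at 51.6% and 51.1%.

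Among potassium channel genes, 12 of 18 lay below 0 and 6 above, and none passed. The zebrafish ERG channel gene kcnh6a (ENSDARG00000001803) stood at 645, 707 and 893 in the RO libraries and 921, 626 and 540.04 in the DMSO libraries. The groups overlapped fully, as DMSO replicate 1 was the highest of all libraries and the other DMSO libraries the lowest. Its log2 difference was 0.13 (95% interval -0.29 to 0.55, adjusted p = 0.830). KCNE4, a small subunit that modulates KCNQ1 channels, stood at 43.0, 41.4 and 37.5 in the RO libraries and 65.4, 31.5 and 32.5 in the DMSO libraries. Again DMSO replicate 1 stood highest, and the RO libraries lay between it and the other DMSO libraries. The log2 difference of KCNE4 was -0.0016 (-0.53 to 0.52), and 0.34 without DMSO replicate 1. The gene kcnq1.1, of the pore subunit of the slow delayed rectifier, stood at 26.0, 35.5 and 30.2 in the RO libraries and 38.4, 33.6 and 34.5 in the DMSO libraries (log2 difference -0.22, adjusted p = 0.582).

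The smallest p-values of this group were those of KCNMB2, kcnn1a and kcnq5a, the 3 with an unadjusted p under 0.05 in limma. KCNMB2, an accessory subunit of large-conductance calcium-activated channels, stood at 6.42, 6.79 and 8.03 in the RO libraries and 9.24, 10.6 and 12.8 in the DMSO libraries. Each RO library lay below each DMSO library (log2 difference -0.58, -1.04 to -0.12, adjusted p = 0.254). The small-conductance calcium-activated channel gene kcnn1a stood at 4.75, 8.76 and 6.33 in the RO libraries and 9.72, 13.2 and 9.53 in the DMSO libraries. Here too the groups did not overlap (-0.69, -1.25 to -0.14, adjusted p = 0.260). The gene kcnq5a, of the Kv7 family of M-type channels, stood at 6.98, 8.10 and 12.9 in the RO libraries and 12.6, 16.0 and 13.7 in the DMSO libraries, with RO replicate 4 above DMSO replicate 1 (-0.61, adjusted p = 0.288). The inward rectifier gene kcnj14 had 12.8, 16.4 and 15.6 in the RO libraries and 15.3, 23.5 and 20.8 in the DMSO libraries (-0.39, adjusted p = 0.429), and the silent subunit gene KCNG2, which modifies Kv2 channels, 23.2, 15.8 and 13.4 in the RO libraries and 27.7, 19.6 and 21.1 in the DMSO libraries (-0.40, adjusted p = 0.479). Of the inward rectifiers with known roles in heart muscle, kcnj11, the pore of the ATP-sensitive channel, stood at 5.65 ± 0.647 in RO and 4.26 ± 0.922 in DMSO (0.38, adjusted p = 0.590), and KCNJ2 at 2.35 ± 0.588 in RO and 2.5 ± 1.0 in DMSO (-0.043, adjusted p = 0.974). KCNJ2 rested on 29 reads in each group, so its interval ran from -0.87 to 0.79. The other 8 potassium channel genes, KCNK6, kcnk1a, kcnc4, KCNG3, KCNAB2, KCNH4, KCNQ5 and KCNT1, had log2 differences from -0.59 to 0.32, with overlapping groups. Among them KCNQ5, of the same family as kcnq5a, had 0.043 (-1.05 to 1.13, adjusted p = 0.980).

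Genes of sodium transport lay mostly on the lower side. Of 13 genes, 10 lay below 0, and none passed. All 5 genes with a mean value below 5 lay below 0, so this count rests in part on genes with few reads. ATP1B1 (ENSDARG00000013144), the beta subunit that brings the pump to the membrane, stood at 1000.2, 911 and 1127 in the RO libraries and 954, 832 and 849 in the DMSO libraries (log2 difference 0.20, -0.068 to 0.47, adjusted p = 0.534). DMSO replicate 1 lay above RO replicate 3, so the groups overlapped. The exchanger gene SLC8A1, known in mammals as NCX1, stood at 484, 748 and 772 in the RO libraries and 660.2, 819.9 and 983 in the DMSO libraries. RO replicate 2 was the lowest library and DMSO replicate 3 the highest, while RO replicates 3 and 4 lay between DMSO replicates 1 and 2 (-0.31, -0.73 to 0.12, adjusted p = 0.550).

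The pacemaker channel gene hcn2b stood at 135, 125 and 128 in the RO libraries and 188, 150.5 and 122 in the DMSO libraries. The RO libraries lay close together, inside the wider DMSO range (-0.22, adjusted p = 0.577). SCN3B, a beta subunit of sodium channels named after its values were seen, had 61.7, 98.3 and 108 in the RO libraries and 84.4, 96.8 and 113 in the DMSO libraries (-0.16, adjusted p = 0.789), with RO replicate 2 lowest and RO replicates 3 and 4 inside the DMSO range. The skeletal muscle type sodium channel gene scn4ab, also named after its values were seen, averaged 8.67 ± 2.46 in RO and 11.9 ± 4.04 in DMSO (-0.42, adjusted p = 0.565). The pump subunit gene atp1b3b averaged 13.3 ± 0.917 in RO and 18.3 ± 4.84 in DMSO (-0.41, adjusted p = 0.437). The second ATP1B1 gene (ENSDARG00000076833) averaged 2.52 ± 0.779 in RO and 3.64 ± 1.36 in DMSO (-0.42, adjusted p = 0.687). The sodium genes atp1a3a of the pump (-0.18) and scn1lab of a sodium channel (-0.53), had mean values below 5 and overlapping groups. Counting may divide the reads of near-identical pump paralogs, so the low ones are uncertain.

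Calcium channel genes of the surface membrane showed small differences where they were well measured. Of 10 genes, 8 lay below 0, none passed, and none had an unadjusted p under 0.05. CACNA1C, the pore subunit of the cardiac L-type channel, stood at 48.9, 61.8 and 62.5 in the RO libraries and 56.9, 65.8 and 78.6 in the DMSO libraries. RO replicate 2 was lowest, DMSO replicate 3 highest, and the groups overlapped (log2 difference -0.21, -0.55 to 0.12, adjusted p = 0.613). CACNA1G, a pore subunit of T-type channels, stood at 140.5, 203 and 257 in the RO libraries and 150.2, 188 and 173 in the DMSO libraries. The RO libraries spread wider than the DMSO libraries, from the lowest to the highest value of the 6 (0.19, -0.22 to 0.61, adjusted p = 0.721). Without RO replicate 4, the highest, the difference was -0.0072, and without RO replicate 2, the lowest, it was larger than with all 6. Both accessory subunit genes with a mean value of 5 or more had overlapping groups. The gene cacna2d1a, of the alpha-2-delta subunit, had 72.6, 69.2 and 55.5 in the RO libraries and 73.9, 61.2 and 70.9 in the DMSO libraries (-0.066, -0.37 to 0.24, adjusted p = 0.890), and CACNB1, a beta subunit, 50.0, 47.7 and 52.8 in the RO libraries and 47.4, 50.6 and 54.5 in the DMSO libraries (-0.017, -0.28 to 0.25, adjusted p = 0.97).

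The 6 other calcium channel genes had mean values below 5. Among them, CACNB4, a beta subunit, had 3.63, 5.26 and 4.87 in the RO libraries and 3.16, 2.06 and 3.27 in the DMSO libraries and was the 1 calcium channel gene whose groups did not overlap (0.62, -0.053 to 1.29, adjusted p = 0.422). The T-type gene cacna1ha had 1.12, 4.38 and 0.973 in the RO libraries and 4.13, 6.19 and 2.68 in the DMSO libraries, on 28 reads in RO and 50 in DMSO (-1.03, -2.10 to 0.048, adjusted p = 0.398). Both were named after their values were seen. The remaining 4, CACNA1S, cacna1aa, cacng6b and CACNG8, had log2 differences from -0.66 to -0.13.

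Of 18 genes of the calcium stores, 11 lay below 0 and 7 above, and none passed. Of 8 genes for the release complex (ryanodine receptors, calsequestrins, triadin and junctophilin), 6 lay below 0. RYR2, the ryanodine receptor of heart muscle, stood at 380.1, 448 and 522 in the RO libraries and 367, 449 and 550.5 in the DMSO libraries (log2 difference -0.011, -0.37 to 0.35, adjusted p = 0.986). CASQ2, the cardiac calsequestrin, had 500.2, 504 and 481 in the RO libraries and 454, 568 and 589 in the DMSO libraries (-0.11, -0.38 to 0.16, adjusted p = 0.768). CASQ1, known as the skeletal muscle form in mammals, had 75.7, 94.8 and 96.4 in the RO libraries and 99.9, 126 and 109 in the DMSO libraries, and each RO library lay below each DMSO library (-0.33, -0.63 to -0.028, adjusted p = 0.323). The triadin gene trdn stood at 45.2, 63.1 and 53.8 in the RO libraries and 61.0, 75.6 and 84.0 in the DMSO libraries, with RO replicate 3 above DMSO replicate 1 and the others apart (-0.44, -0.79 to -0.093, adjusted p = 0.253). JPH2, the junctophilin that ties the store to the surface membrane, stood at 50.0, 44.0 and 56.0 in the RO libraries and 54.7, 57.8 and 62.2 in the DMSO libraries (-0.22, -0.51 to 0.063, adjusted p = 0.513). RYR3, a ryanodine receptor with wider tissue range, stood at 29.3, 40.3 and 54.5 in the RO libraries and 52.0, 62.7 and 66.7 in the DMSO libraries. RO replicates 2 and 3 lay below the DMSO libraries and RO replicate 4 among them (-0.58, -1.02 to -0.14, adjusted p = 0.233). RYR1 (ENSDARG00000023797), the skeletal muscle form in mammals, named after its values were seen, lay on the other side at 62.6, 60.2 and 101 in the RO libraries and 49.1, 64.0 and 66.7 in the DMSO libraries (0.28, -0.15 to 0.72, adjusted p = 0.600). Only RO replicate 4 lay above the DMSO range, and RO replicates 2 and 3 lay inside it. The second RYR1 gene (ENSDARG00000011422) averaged 6.19 ± 1.21 in RO and 5.60 ± 1.64 in DMSO (0.15, adjusted p = 0.866).

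On the uptake side, the SERCA gene atp2a2a stood at 1024, 1335 and 1444 in the RO libraries and 1399, 1700.3 and 1479 in the DMSO libraries. RO replicate 2 was lowest, DMSO replicate 2 highest, and RO replicate 4 lay above DMSO replicate 1 (log2 difference -0.28, -0.61 to 0.053, adjusted p = 0.479). The gene listed as ATP2A2, a second SERCA2 gene, had 72.3, 87.2 and 71.8 in the RO libraries and 67.6, 55.7 and 69.7 in the DMSO libraries, with each RO library above each DMSO library (0.26, -0.035 to 0.56, adjusted p = 0.451). ATP2A3, the SERCA gene of blood and endothelial cells in mammals, averaged 23.3 ± 4.07 in RO and 19.4 ± 0.897 in DMSO (0.24, adjusted p = 0.592). ATP2A2 and ATP2A3 were named after their values were seen. The phospholamban gene pln1 stood at 1335, 1554 and 1758 in the RO libraries and 1579, 1763 and 1761 in the DMSO libraries, with overlapping groups (-0.14, -0.44 to 0.15, adjusted p = 0.711).

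Of 4 IP3 receptor genes, 3 lay below 0 and ITPR3 above, and none passed. ITPR3 stood at 20.7, 10.5 and 9.0 in the RO libraries and 4.13, 8.78 and 5.95 in the DMSO libraries. Each RO library lay above each DMSO library, but RO replicate 2 was far above the others and RO replicate 4 was just above DMSO replicate 2 (log2 difference 0.999, 0.27 to 1.73, adjusted p = 0.210). Without RO replicate 2 the difference was 0.65 (adjusted p = 0.463). ITPR1 (ENSDARG00000074149) had 8.38, 8.10 and 9.73 in the RO libraries and 15.6, 11.1 and 11.3 in the DMSO libraries, without overlap, the RO libraries being lower (-0.50, -0.94 to -0.054, adjusted p = 0.311). The second ITPR1 gene (ENSDARG00000014655) averaged 6.49 ± 1.61 in RO and 8.39 ± 0.602 in DMSO (-0.37, adjusted p = 0.549), and ITPR2 15.1 ± 5.77 in RO and 17.7 ± 3.21 in DMSO (-0.28, adjusted p = 0.726), where RO replicate 2 stood at 8.66 and the other RO libraries at 19.7 and 17.0. The 3 genes named for a link to the IP3 receptor are described apart: ITPRIP averaged 13.4 ± 2.20 in RO and 9.80 ± 1.65 in DMSO (0.43, adjusted p = 0.390) and ITPRID2 32.1 ± 7.77 in RO and 24.0 ± 1.33 in DMSO (0.38, adjusted p = 0.408), both named after their values were seen, and itprid1 had a log2 difference of -0.043. Without these 3 the median of the store genes was -0.22. IP3 receptors act in thrombocytes, a type of blood cell. In the thrombocyte marker list, 6 of 6 matched genes lay above 0 and 1 passed, FERMT3 (ENSDARG00000030938), where 1.03% of all genes passed. Whether these genes are confined to thrombocytes was not tested. The list summed to 340.2, 285 and 208 in the RO libraries and 153, 178 and 191 in the DMSO libraries. The highest sum was that of RO replicate 2, as for ITPR3. Macrophage markers also summed highest there, at 768, 537 and 611 in the RO libraries and 607, 593 and 390 in the DMSO libraries. Endothelium markers summed lowest there, at 683, 788 and 798 in the RO libraries and 729, 732 and 692 in the DMSO libraries. The part of any of these cells in the IP3 receptor values was not tested.

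**Figure D3:**
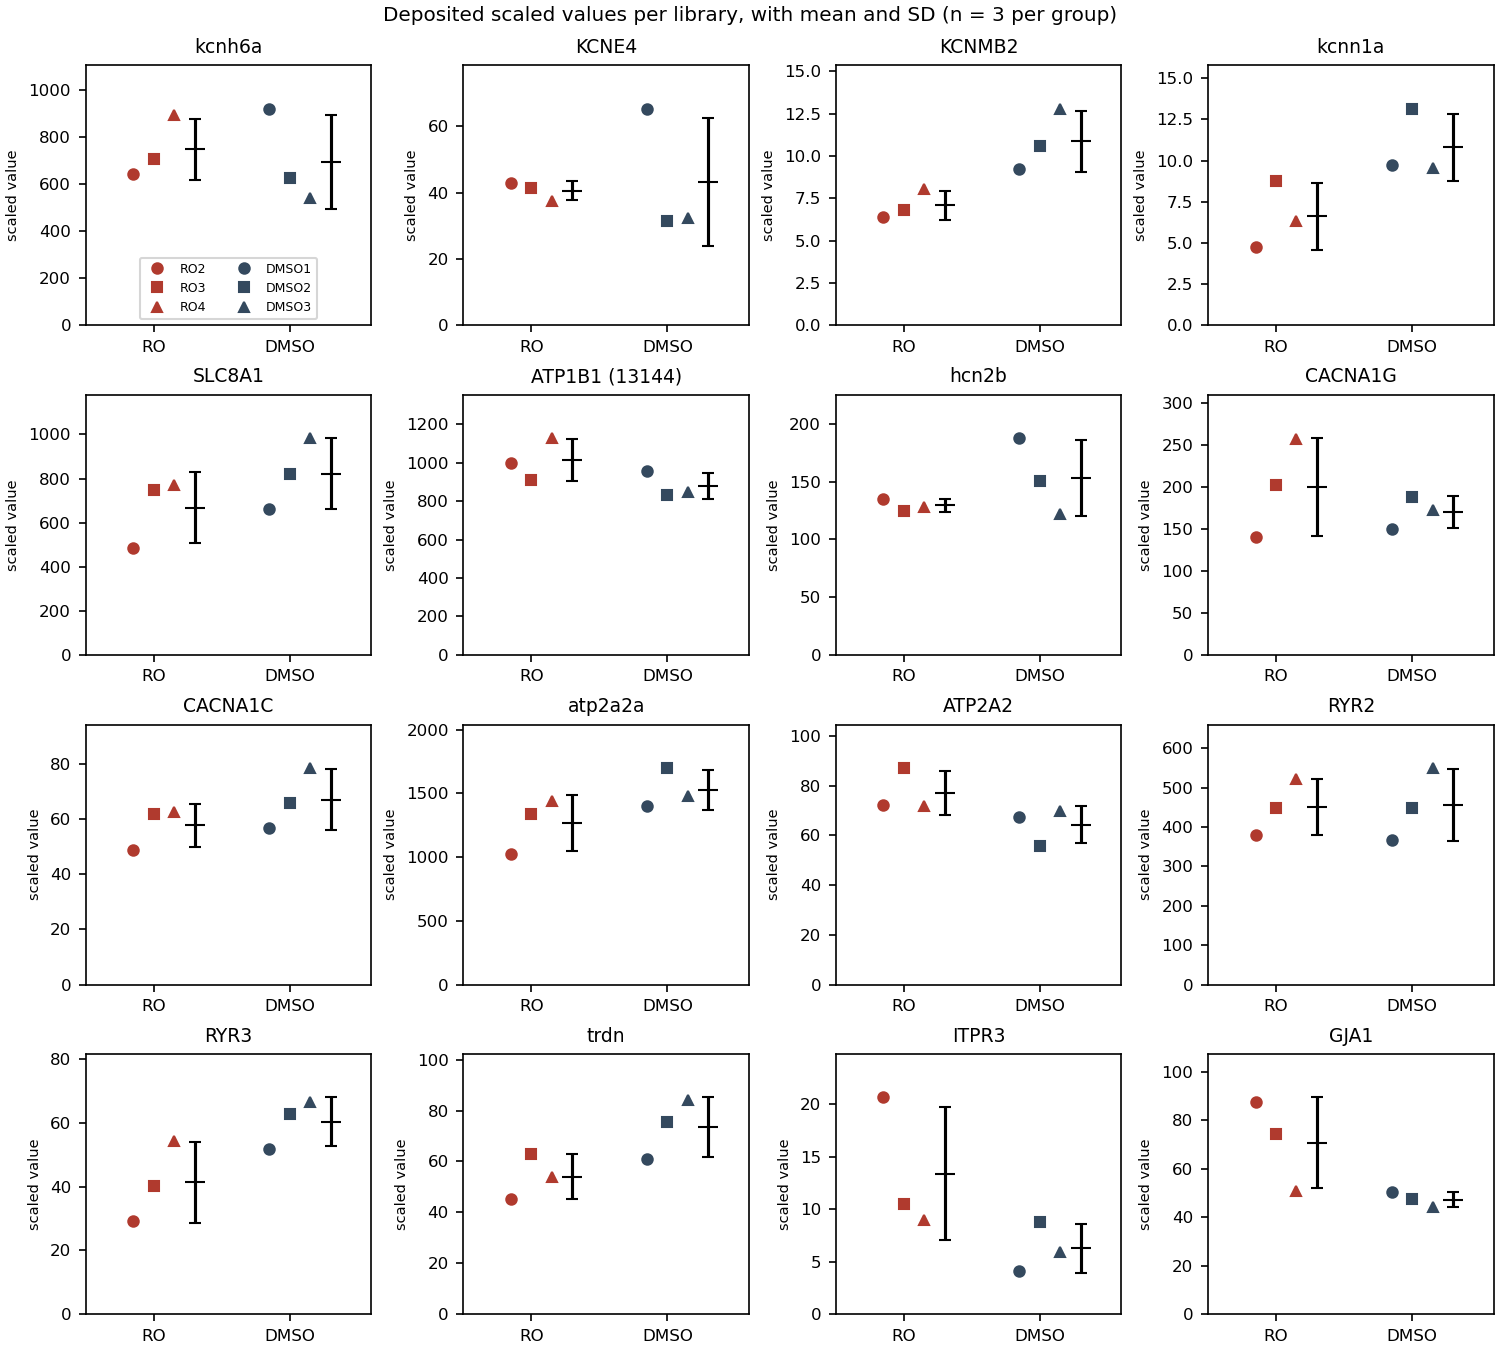
Deposited scaled values (vertical axes, from 0) of 16 genes in each RO library (red, left) and each DMSO library (dark, right), with the mean and SD of 3 libraries beside the points. For KCNMB2, kcnn1a, ATP2A2, ITPR3 and GJA1 the groups do not overlap, and for the other genes shown they do.

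**Figure D4:**
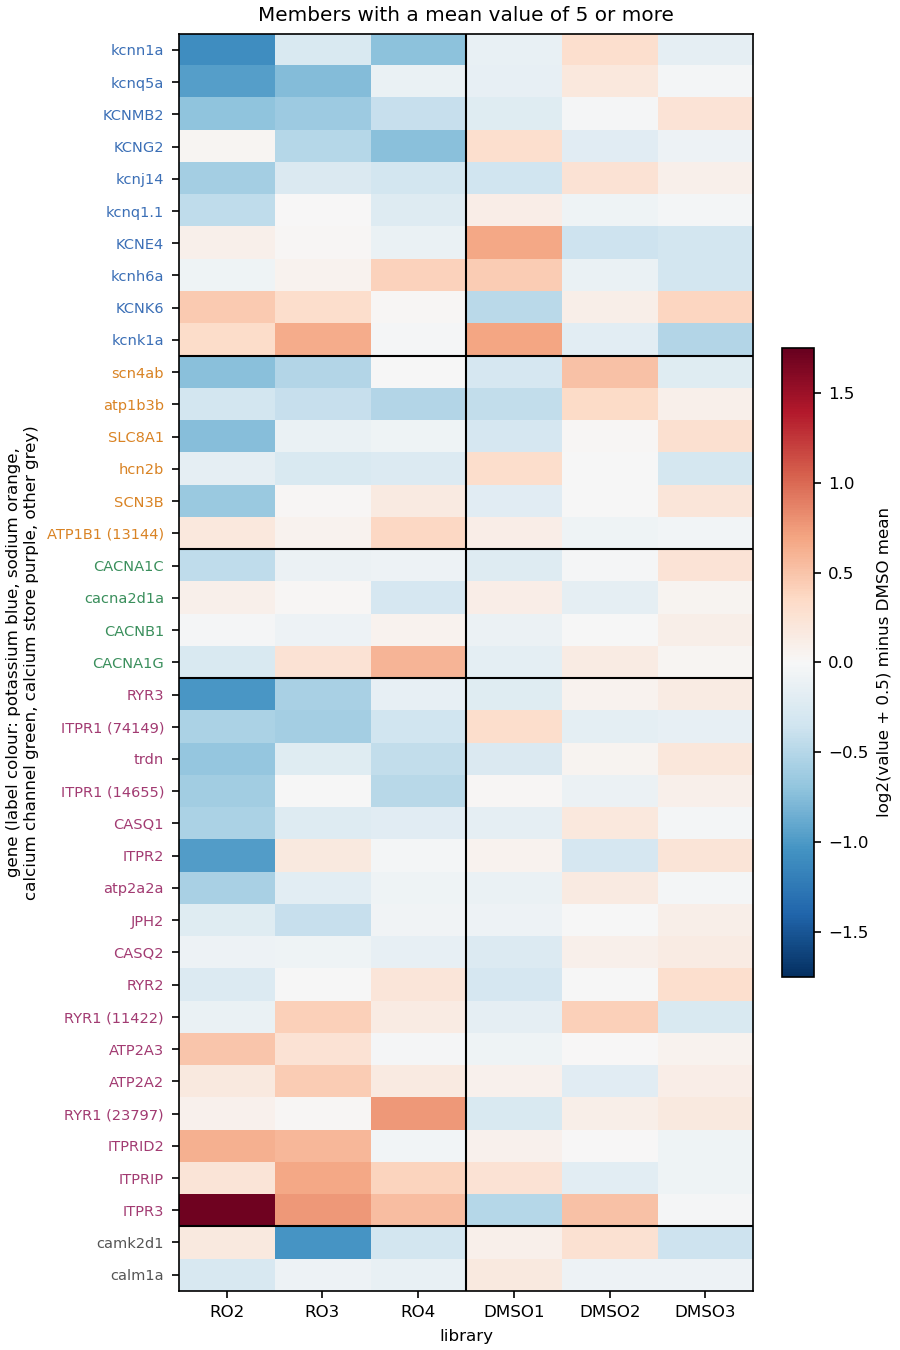
Log2(value + 0.5) minus the DMSO mean for 39 members with a mean value of 5 or more (rows, by group) in each library (columns). RO2 holds many of the lowest cells, for example for kcnn1a, RYR3 and ITPR2, and the highest cell for ITPR3.

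Of the 2 single genes, calm1a, which encodes the calcium sensor calmodulin, stood at 169, 193 and 186 in the RO libraries and 231, 193 and 193 in the DMSO libraries. DMSO replicate 1 was highest, and DMSO replicates 2 and 3 lay at the level of RO replicate 3 (log2 difference -0.17, -0.42 to 0.090, adjusted p = 0.604). The kinase gene camk2d1, of the calmodulin-dependent kinase II that acts on calcium channels and on phospholamban, averaged 4.65 ± 2.04 in RO and 6.0 ± 1.41 in DMSO (-0.39, -1.13 to 0.34, adjusted p = 0.672). GJA1, the gene of the gap junction protein connexin 43, stood at 87.4, 74.2 and 50.6 in the RO libraries and 50.3, 47.5 and 44.1 in the DMSO libraries. Each RO library lay above each DMSO library, RO replicate 4 by a small margin over DMSO replicate 1 (0.54, 0.14 to 0.94, adjusted p = 0.210). Without RO replicate 4 it passed (0.76, adjusted p = 0.0409), and without each of the other libraries its adjusted p was 0.311 to 0.443.

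Other genes of these pathways were taken from 5 lists, apart from the 61. Of 28 further calcium handling genes (store-operated entry, mitochondrial uptake, store proteins, surface calcium pumps), 18 lay below 0 and none passed (median -0.058). The most abundant by scaled reads, VDAC2, an outer mitochondrial membrane channel, stood at 1343 ± 38.9 in RO and 1434 ± 65.7 in DMSO (-0.094, adjusted p = 0.782). Of 19 genes for calmodulin and its effectors, 9 lay below 0 and none passed (median 0.016); CALM2 averaged 595 ± 66.6 in RO and 579 ± 39.9 in DMSO (0.034, adjusted p = 0.937), a direction that turned with quantile normalization. Of 19 genes of beta adrenergic and cyclic nucleotide signalling, 11 lay below 0 and none passed (median -0.068), with POPDC2, a cAMP-binding membrane protein, at 457 ± 44.3 in RO and 509.9 ± 27.8 in DMSO (-0.16, adjusted p = 0.605). Of 19 genes of gap junctions and the intercalated disc, 13 lay below 0 and none passed (median -0.077), with the junction gene CTNNB1 at 709.5 ± 91.0 in RO and 821 ± 64.4 in DMSO (-0.22, adjusted p = 0.518). Of 20 genes of other ion transport, 13 lay below 0 (median -0.097) and 1 passed. It was CLIC2, of the chloride intracellular channel family. CLIC2 (ENSDARG00000010625) stood at 649, 738 and 797 in the RO libraries and 339, 288 and 352 in the DMSO libraries. It rose 2.23-fold in RO (log2 difference 1.16, adjusted p = 0.00262), and each RO library lay far above each DMSO library. Without the mean-variance trend of limma its adjusted p was 0.0826.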

How the data were processed

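The authors deposited 1 table of a scaled signal per gene and library. Per the submitters' processing notes, the build Zv9 and edgeR, RSEM 1.2.3, Bowtie2 2.0.6, cutadapt 1.6.1 and CASAVA 1.8 are named without a role. No source used here gives the annotation or the use of strand, so overlapping and antisense genes were not told apart. Every value was a whole number of reads (within 0.01) times 1 factor per library, and TMM scaling of the recovered reads gave the same differences as the deposited values. All 14211 genes lay above 1 in at least 3 libraries. Symbols came from a table of gene IDs (11589 matched), synonyms from RefSeq (GRCz12tu names only). No sequences or coordinates were used. Of the members, 4 enter the counts and medians but are not reported here one by one.

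Differences are RO minus DMSO in log2(value + 0.5), which understates changes of low genes, tested with limma 3.58.1 (trend, R 4.3.3) and adjusted by Benjamini-Hochberg over all genes; adjusted p-values come from it where no other tool stands beside them. The code was tested on simulated data. edgeR 4.0.16 and DESeq2 1.42.0 on recovered reads, other pseudocounts, minimum values, scalings and limma settings, a replicate block and each library left out were alternatives. Libraries of a group differed beyond counting noise (chi-square per degree of freedom 5.02 to 11.7).

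Members and lists were chosen with earlier results of these data known. Named genes are, per group, the 4 with the highest mean value and the 4 with the smallest p at a mean of at least 5. A fixed set of cardiac genes was added where the members held them. No member stood for kcnh2a, kcnj12a, scn5lab, scn5laa, scn1bb, hcn4, cacnb2a or atp2a1 of that set, so these were not examined. From each list, those that passed are named, else the most abundant. Of 234 list symbols 157 were matched. The 10 marker lists checked cell types. Those of cardiomyocytes, thrombocytes, and neurons and Schwann cells are described above. Of the others, genes lay above 0 for 5 of 9 of endothelium (1 passed), 3 of 10 of fibroblasts and epicardium and 3 of 6 of smooth muscle (1 passed). They did so for 0 of 1 of skeletal muscle, 7 of 9 of macrophages, 1 of 3 of erythrocytes and 1 of 5 of the pacemaker list.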

Additional observations from a re-analysis of the deposited data

How the results depend on the processing

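Leaving out the minimum value kept the same 14211 genes, and TMM scaling gave the same differences, so neither was a separate check. No member passed in 17 of the 18 alternatives, and the smallest adjusted p of any member there was 0.0756. Several of the 17 called few genes of the whole table, as counted below, so they could hardly have called a member. DESeq2 gave an adjusted p for only 29 members. The exception was the replicate block, the number in the library titles as a covariate: 2 members passed, RYR3 (-0.90) and SLC8A1 (-0.58), as 405 genes of the table (2.85%) did, and GJA1 at 0.81. The groups share only the numbers 2 and 3. RO replicate 4 and DMSO replicate 1 have no same-numbered partner, so the blocked differences rest on RO and DMSO replicates 2 and 3 alone. The labels do not say that a number marks a shared batch. Same-numbered libraries deviated together weakly (correlation 0.116 and 0.0913). Both values still lay above those of all RO and DMSO libraries with different numbers (-0.116 to 0.0433). As no label names a shared batch, the main fit did not take the numbers as pairs. Whether they mark pairs was not tested.

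The count over all genes was 147, and 1 without the mean-variance trend, 240 with DESeq2 and 22 to 105 with a library left out (95 without RO replicate 2, 48 without RO replicate 3, 59 without DMSO replicate 1 and 22 without DMSO replicate 2). Of calmodulin and effector genes 1 passed with DESeq2, and of other ion transport genes 0 without the trend. The members' median ran from -0.23 to -0.12 with a library left out, that of potassium channels from -0.29 to -0.16, of sodium transport from -0.43 to -0.24, of calcium channels from -0.19 to -0.093 and of stores from -0.24 to 0.086. The median of calcium channels was -0.042 at a minimum value of 5, and that of stores -0.28 with the block and -0.22 without ITPRIP, ITPRID2 and itprid1. With a library left out, fewer values make overlap rarer, and 27.7% to 32.0% of all genes had none. Members without overlap numbered 11 without DMSO replicate 3 (18.0%, against 27.7% of all genes). They numbered 24 without DMSO replicate 1 (39.3%, against 29.2% of all genes). With each other library left out, the members' share lay below that of all genes.

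Directions turned for 11 of 48 named genes, most of them near 0. With the block CACNA1G stood at -0.095, cacna2d1a at 0.11, CALM2 at -0.043, KCNE4 at 0.40, KCNJ2 at 0.39 and RYR1 (ENSDARG00000023797) at -0.089. With quantile normalization CALM2 stood at -0.0038 and KCNJ2 at 0.033, and with median-of-ratios scaling KCNE4 at 0.0024. Over the libraries left out the lowest and highest values were -0.036 and 0.35 for kcnh6a, -0.066 and 0.034 for CACNB1, -0.16 and 0.14 for RYR2, -0.50 and 0.068 for ITPR2, -0.15 and 0.051 for cacna2d1a, -0.21 and 0.22 for KCNJ2, -0.18 and 0.34 for KCNE4, -0.0072 and 0.43 for CACNA1G, -0.026 and 0.13 for CALM2 and -0.32 and 0.086 for SCN3B. The cause was not tested. Genes below 5 rest on few reads a library, which limits what could be detected.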

Other observations

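Some genes of a family lay on opposite sides of 0, and the ratio of such genes within a library does not depend on the scaling of that library. The pairs below were chosen after their values were seen and carry no test. The ratio of atp2a2a to the second SERCA2 gene, ATP2A2, was 14.2, 15.3 and 20.1 in RO replicates 2, 3 and 4 and 20.7, 30.5 and 21.2 in DMSO replicates 1, 2 and 3. Each RO library thus lay below each DMSO library, RO replicate 4 by a small margin. The ratio of RYR1 (ENSDARG00000023797) to RYR3 was 2.13, 1.49 and 1.85 in the RO libraries and 0.944, 1.02 and 1.0 in the DMSO libraries. The DMSO libraries lay close together and all RO libraries above them. The mean log2 ratio differed between groups (RO minus DMSO) by -0.54 for the first pair and 0.86 for the second. The ratios do not show which gene of a pair differed, and counting may divide reads between similar genes. The part of the mix of cells in these ratios was not tested.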
